A study of Mus musculus with 32 samples.

Results

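Cultured cells of the mouse colon adenocarcinoma line MC38 were compared between a parental form and a form resistant to anti-PD-1, which is an antibody against the T cell inhibitory receptor PD-1. The members are the 7 libraries whose description names cultured cells, 2 of the parental and 5 of the resistant line, out of 32 libraries in the series. The other 25 are subcutaneous tumors of the same lines, 13 parental and 12 resistant, grown in untreated C57BL6/J mice, and they enter in the tumor comparison, in the test of the difference between the settings and in fits said to be over all 32 libraries. All libraries were made from poly(A) RNA, and the labels call the cultures untreated. How resistance was obtained, whether the resistant line is 1 clone, the culture conditions, the passage and whether the libraries of a line came from separate cultures are not given in the labels. The p-values in culture therefore measure only the spread between these libraries, which may be technical.

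The comparison asks how the resistant cells differ from the parental cells with no host cells in the dish. In a tumor, a cancer cell is recognized by cytotoxic T cells through peptides on MHC class I, and interferon gamma from those T cells, acting through JAK kinases and STAT factors, raises the antigen processing genes. Other signals that a cancer cell can carry by itself include NF-kappaB, a family of dimeric factors held in the cytoplasm by inhibitors such as Nfkbia, and AP-1, the Jun and Fos factors that lie downstream of MAP kinases. Cells of epithelial origin can also move along an axis between adherent epithelial and migratory mesenchymal states, in which the factors Zeb1 and Snai1 repress cell junction genes and the secreted matrix changes.

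The deposited values are TPM, the length-scaled share of a gene's transcripts in its library, summing to 1000000 in each library. They hold no read totals, so depth is unknown and counting intervals cannot be computed. Genes at 1 TPM or more numbered 10654 and 10978 in the parental libraries and 10470 to 10799 in the resistant ones, and no 2 libraries held identical values. Of 22329 genes in the table, 11201 reached 1 TPM in at least 2 of the 7 libraries and were tested on log2(TPM + 1) with limma, two-sided. A gene is said to have risen, fallen or been called where its Benjamini-Hochberg adjusted p, over all genes tested, was under 0.05. Differences are resistant minus parental and are log2 values on that scale, which understates the change of genes near 0 TPM. TPM values are given in library order, parental 1 and 2 and then resistant 1 to 5.

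One library stood apart. Across the 11201 genes, resistant libraries 2 to 5 correlated with each other at r of 0.974 to 0.983, and resistant library 1 correlated with them at only 0.957 to 0.960. Its correlation with the parental libraries was 0.934 to 0.939, against 0.914 to 0.927 for the other resistant libraries. Of 1128 genes called with at least a 2-fold difference in a fit that left resistant library 1 out, that library lay between the mean of the other resistant libraries and the parental mean at 832, and nearer to the parental mean at 346. Its median place was 31.6% of the way to the parental mean. Each other resistant library, placed the same way by a fit without it, lay at -5.15% to -1.60%. The reference mean of those 4 includes resistant library 1, which by itself lowers their values, so the places are not measured from like references. Mitochondrial transcripts in the table made up 8.08% of resistant library 1, against 5.12% to 6.38% in the other 6. Of 13 mitochondrially encoded genes listed 7 could be tested, and mt-Atp6, mt-Co2 and mt-Co3 stood at 0 in every cultured library. The share is therefore that of the transcripts the table holds. Counts over lists in culture are therefore also given without resistant library 1.

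The cultured cells carried few defining markers of colon epithelium. Of 12 such markers, 10 stayed under 1 TPM in all 7 libraries, among them Cdx2, Epcam, Cdh1, Krt8 and Krt18. All 10 mesenchymal markers reached 1 TPM in at least 1 library. The lowest, Col1a2, was 0.529 and 1.88 TPM in parental and 1.02, 1.42, 0.628, 0.487 and 0.155 in resistant libraries. The highest was Vim, the intermediate filament vimentin, with 2467 and 3207 TPM in parental and 2355, 2082, 2168, 2211 and 2276 in resistant libraries. The 10 sum to 2741 and 3724 TPM in the parental and 2494 to 2810 TPM in the resistant libraries, most of it from Vim. Vim did not pass the test between the lines (adjusted p = 0.131). Of 10 leukocyte markers, 9 stayed under 1 TPM, with Cd3e, Cd8a and Ncr1 listed at 0 throughout, and they sum to 0.504 and 3.71 TPM in the parental and 0.195 to 1.42 TPM in the resistant libraries. Of 5 endothelial markers 4 stayed under 1 TPM. The endothelial list sums to 0.957 and 4.10 TPM in the parental and 0.279 to 8.01 TPM in the resistant libraries, most of it from Cdh5, which was 0.957 and 3.81 TPM in parental and 7.18, 0.235, 1.87, 0.419 and 0.825 in resistant libraries.

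In the resistant cells 689 genes were higher (6.15% of those tested) and 901 lower (8.04%). Of these, 346 and 557 changed at least 2-fold, 110 and 201 at least 4-fold, and 14 and 18 at least 16-fold. Without resistant library 1 the counts were 924 higher (8.32%) and 1192 lower (10.7%) of 11105 tested. The parental side rests on 2 libraries: without parental library 1 the counts were 216 and 279, and without parental library 2 they were 340 and 176. In those fits the lone parental library is assumed to vary like the resistant ones. Leaving out resistant library 3 or 4 gave 453 and 634, and 421 and 610.

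The largest rise was that of Dcn, decorin, a small proteoglycan that binds collagen and growth factors. Its level was 1.67 and 6.81 TPM in parental and 211, 501, 791, 688 and 753 in resistant libraries, a difference of 6.87 (SE 0.54, adjusted p = 0.000187). Mmp9, a secreted protease that cuts basement membrane collagen, was 0.0719 and 1.84 TPM in parental and 80.4, 138, 179, 147 and 123 in resistant libraries, a difference of 6.22 (SE 0.38, adjusted p = 7.08e-05). For both genes every resistant library lay far above both parental libraries, and resistant library 1 was the lowest of the resistant ones. Cd200, a surface ligand whose receptor restrains myeloid cells, was 0.279 and 0 TPM in parental and 15.1, 76.7, 39.8, 31.8 and 31.9 in resistant libraries, a difference of 4.96 (SE 0.48, adjusted p = 0.000416). It was at or near 0 in the parental cells and present in all resistant libraries.

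Several of the other large rises were of genes known from blood cells or from metabolism. Stxbp2, which serves granule exocytosis, was 0.204 and 0.51 TPM in parental and 16.5, 58.9, 79.2, 95.3 and 66.3 in resistant libraries (difference 5.37 (SE 0.56, adjusted p = 0.00058)). Fyb, an adaptor of T cell and myeloid signaling, was 0.467 and 3.03 TPM in parental and 66.1, 34.1, 39.5, 47.3 and 43.7 in resistant libraries (difference 4.24 (SE 0.37, adjusted p = 0.000261)). Laptm5, a lysosomal membrane protein of blood cells, was 2.21 and 4.67 TPM in parental and 15.9, 59.98, 121, 128 and 73.9 in resistant libraries (difference 3.94 (SE 0.68, adjusted p = 0.00606)). Both rose while the leukocyte markers stayed at the sums above, with Ptprc at 0.147 TPM at most. Tnfsf13b, the B cell survival cytokine BAFF, was 0.194 and 1.43 TPM in parental and 21.5, 36.7, 41.2, 37.4 and 34.03 in resistant libraries (difference 4.34 (SE 0.32, adjusted p = 0.000181)). Acsl5, which activates long-chain fatty acids, was 0.191 and 1.08 TPM in parental and 44.2, 53.2, 42.1, 47.1 and 48.5 in resistant libraries. Slc4a5, a sodium bicarbonate transporter, was 0.993 and 1.14 TPM in parental and 70.7, 49.9, 59.1, 70.9 and 60.4 in resistant libraries. Their differences were 4.93 (SE 0.23, adjusted p = 1.00e-05) and 4.92 (SE 0.18, adjusted p = 4.01e-06). In these 2 genes, in Pacs1, a sorting adaptor of the secretory pathway (0.563 and 0.279 TPM in parental and 23.3, 29.5, 24.1, 27.9 and 25.8 in resistant libraries), and in Fyb, resistant library 1 was not shifted toward the parental level.

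Inhba, the subunit of activin A, a ligand of the TGF-beta family, was 1.47 and 4.66 TPM in parental and 37.9, 57.3, 67.3, 71.5 and 57.3 in resistant libraries (difference 3.96 (SE 0.33, adjusted p = 0.000228)). Pfn2, a profilin that binds actin monomers, was 5.42 and 8.94 TPM in parental and 75.1, 214, 198, 236 and 134 in resistant libraries (difference 4.32 (SE 0.41, adjusted p = 0.000353)). Padi2, which converts arginine to citrulline in proteins, differed by 3.93 (SE 0.53, adjusted p = 0.00216), the secreted protein Oaf by 4.66 (SE 0.36, adjusted p = 0.000183), and Cfap61, a protein of motile cilia, by 4.85 (SE 0.86, adjusted p = 0.00689). Cfap61 varied widely within the resistant line, from 7.66 to 106 TPM against 0.282 and 0.375 TPM in the parental libraries. In all 15 genes named the parental and resistant libraries did not overlap, and all 15 were also called without resistant library 1. Called genes named here and below were selected by their culture difference, which by itself favors groups that do not overlap. The share of such genes among all genes tested was not computed. Cfap61 was not called without either parental library, and Laptm5 was not called without parental library 1.

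**Figure D1:**
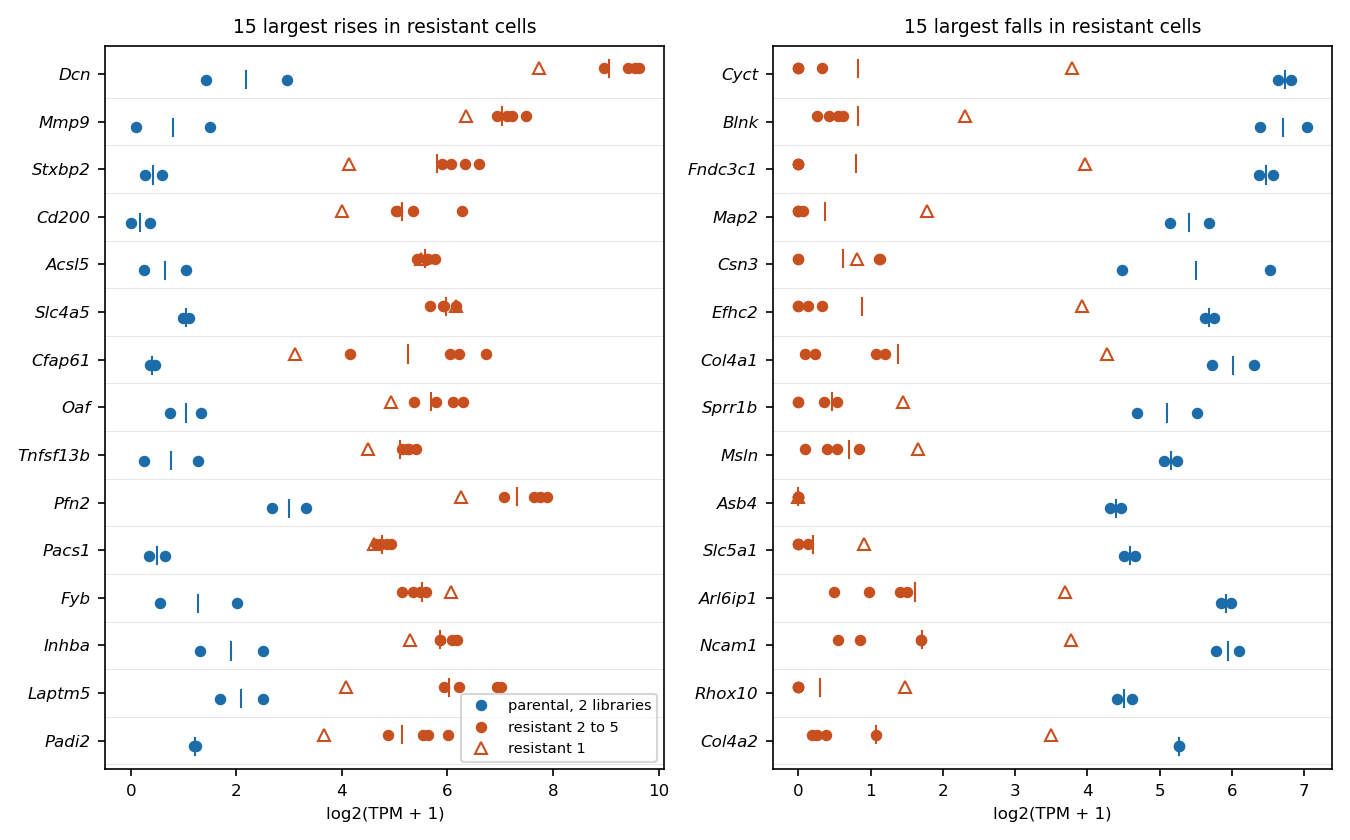
Level of the 15 genes with the largest rise and the 15 with the largest fall in cultured resistant cells, by library. The horizontal axes are log2(TPM + 1), points are libraries (blue parental, orange resistant, the open triangle resistant library 1) and vertical ticks are group means. No gene shows overlap between the lines, which the selection of the genes favors. In most of the falls the triangle lies between the parental and the other resistant libraries.

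The largest falls left genes at or near 0 TPM in most of the resistant libraries. Cyct, the testis form of cytochrome c, was 98.4 and 112 TPM in parental and 12.8, 0, 0.25, 0 and 0 in resistant libraries. Fndc3c1, a fibronectin type III domain protein, was 93.5 and 81.99 TPM in parental and 14.6, 0, 0, 0 and 0 in resistant libraries. Efhc2, a protein of the ciliary axoneme, was 48.6 and 52.6 TPM in parental and 14.2, 0.0969, 0, 0.251 and 0 in resistant libraries. In these 3 genes resistant libraries 2 to 5 were at or near 0 while resistant library 1 kept 12.8 to 14.6 TPM. Their differences were -5.91 (SE 0.93, adjusted p = 0.00419), -5.68 (SE 0.99, adjusted p = 0.00636) and -4.81 (SE 0.96, adjusted p = 0.0119), and without resistant library 1 those of Cyct and Efhc2 were -6.65 (adjusted p = 3.71e-06) and -5.57 (adjusted p = 5.92e-06). Blnk, the adaptor that links the B cell receptor to its kinases, was 129.9 and 82.96 TPM in parental and 3.93, 0.466, 0.527, 0.34 and 0.196 in resistant libraries (difference -5.88 (SE 0.51, adjusted p = 0.000261)). Map2, a microtubule protein of dendrites, was 34.3 and 50.3 TPM in parental and 2.44, 0, 0, 0 and 0.0402 in resistant libraries (difference -5.04 (SE 0.50, adjusted p = 0.00048)). Ncam1, the neural cell adhesion molecule, was 54.04 and 67.6 TPM in parental and 12.7, 0.809, 2.24, 2.24 and 0.461 in resistant libraries (difference -4.23 (SE 0.72, adjusted p = 0.00546)).

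Col4a1 and Col4a2, the chains of the most widespread collagen of basement membranes, are transcribed in opposite directions from a shared promoter region. Col4a1 was 78.2 and 51.7 TPM in parental and 18.3, 1.11, 0.171, 0.0622 and 1.3 in resistant libraries. Col4a2 was 37.4 and 37.7 TPM in parental and 10.2, 0.303, 0.142, 0.194 and 1.11 in resistant libraries. Both chains were high in the parental libraries, intermediate in resistant library 1 and close to 0 in the other resistant libraries. Their differences were -4.64 (SE 0.95, adjusted p = 0.0134) and -4.19 (SE 0.79, adjusted p = 0.00917), and without resistant library 1 -5.37 (adjusted p = 7.95e-05) and -4.79 (adjusted p = 4.73e-05). Msln, the surface protein mesothelin, was 36.8 and 32.4 TPM in parental and 2.14, 0.783, 0.0651, 0.321 and 0.446 in resistant libraries, a difference of -4.45 (SE 0.39, adjusted p = 0.000261). Sprr1b, a precursor of the cornified envelope of squamous cells, differed by -4.64 (SE 0.42, adjusted p = 0.000316), the glucose transporter Slc5a1 by -4.38 (SE 0.32, adjusted p = 0.00016), and Csn3, the milk protein kappa-casein, by -4.89 (SE 0.55, adjusted p = 0.000913). Arl6ip1, which shapes the endoplasmic reticulum, differed by -4.30 (SE 0.70, adjusted p = 0.00476), and the homeobox gene Rhox10 by -4.22 (SE 0.43, adjusted p = 0.000518). Asb4, a substrate adaptor of ubiquitin ligases, was 21.1 and 18.8 TPM in parental and 0, 0, 0, 0 and 0 in resistant libraries (adjusted p = 3.30e-05). All 15 falls remained called without resistant library 1, and in none did the lines overlap, which their selection by size favors. Col4a1, Col4a2, Efhc2 and Fndc3c1 were not called without either parental library, nor Ncam1 without parental library 2. Not every fall could be tested in those fits. Asb4 and Slc5a1, for example, stayed under 1 TPM in every resistant library, so they missed the filter once a parental library was left out.

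Genes were then read by 58 lists of pathways, complexes and cell types. The background was the 6.15% of all tested genes that rose and the 8.04% that fell. These shares changed with the library left out, to 8.32% and 10.7% without resistant library 1. Counts over all genes were 421 and 610 without resistant library 4, and lowest without either parental library, as given above. A list's count in such a fit can move with these totals, so its change alone does not describe the list. Without a parental library some lists also had fewer members tested. Genes present mainly in the parental cells could then miss the filter. The list of NF-kappaB targets and regulators had the highest share of rises: of 21 members tested 13 rose (61.9%) and none fell, with a median difference of 0.76 against -0.01 for all genes tested. Without resistant library 1, 12 rose. The count was 5 without either parental library, 8 without resistant library 4 or 5, 7 with no filter on low genes and 7 in 1 fit over all 32 libraries, and no member fell in any of these. The inhibitor Nfkbia, itself a target of the factors it binds, was 46.3 and 60.5 TPM in parental and 156, 182, 187, 203 and 217 in resistant libraries, a difference of 1.81 (SE 0.16, adjusted p = 0.000296). Vcam1, an adhesion molecule for leukocytes, was 17.1 and 13.5 TPM in parental and 55.6, 53.1, 46.4, 52.1 and 42.8 in resistant libraries, a difference of 1.65 (SE 0.17, adjusted p = 0.000509). In both genes the resistant libraries lay within a narrow range well above both parental libraries.

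Subunits and regulators of the pathway rose with its targets. Nfkb2, the precursor of p52, was 53.9 and 41.9 TPM in parental and 84.5, 136, 127, 131 and 101 in resistant libraries (difference 1.24 (SE 0.21, adjusted p = 0.00515)), and its partner Bcl3 was 12.1 and 9.91 TPM in parental and 22.6, 25.4, 28.9, 21.8 and 25.8 in resistant libraries (difference 1.11 (SE 0.18, adjusted p = 0.00419)). Birc3, an inhibitor of apoptosis and ubiquitin ligase of the pathway, was 1.13 and 6.2 TPM in parental and 16.8, 30.3, 23.4, 30.7 and 42.2 in resistant libraries (difference 2.86 (SE 0.46, adjusted p = 0.00436)). The inhibitor Nfkbie was 2.47 and 1.92 TPM in parental and 4.53, 6.61, 6.58, 6.36 and 6.05 in resistant libraries (difference 1.13 (SE 0.23, adjusted p = 0.0119)). Icam1, an adhesion molecule that leukocyte integrins bind, was 0.0435 and 0.114 TPM in parental and 1.3, 7.56, 11.8, 15.4 and 15.4 in resistant libraries. It was near 0 in the parental cells and rose by 3.10 (SE 0.68, adjusted p = 0.0173), with resistant library 1 the lowest, and by 3.60 (adjusted p = 0.000173) without it. The other 6 called, named after their values were seen, were Nfkb1, Traf1, Tnip1, Relb, Ccl2 and Nfkbiz, with differences of 0.74 to 1.11. Nfkbiz lost its call without resistant library 1. Tnfaip3, the feedback enzyme A20, and Rela, the main activating subunit, were likewise named after their values were seen. Tnfaip3 was 6.22 and 4.88 TPM in parental and 1.41, 2.99, 5.6, 7.84 and 7.8 in resistant libraries, a difference of -0.25 (SE 0.49, adjusted p = 0.778), and Rela differed by 0.31 (SE 0.14, adjusted p = 0.179).

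The upstream sequences of called NF-kappaB and chemokine genes were searched for the kappaB motif GGANTTTCC on both strands, in the 250 bases before each start in RefSeq's mouse promoters (GRCm38.p6). Of the 13 NF-kappaB genes that rose, 8 had an entry, and 3 of these 8 held a match, Icam1, Nfkb2 and Nfkbia. A match was present in 1.07% of all 32851 promoters and in 1.25% of the 27025 genes they belong to, in 1.35% of the 8698 tested genes with an entry, in 2.54% of the 511 that rose and in 1.29% of the 696 that fell. Of 9 motifs searched, the STAT site TTCNNNGAA was also in 3 of the 8, against 7.28% of the tested genes. The E-box CAGGTG of Snail and Zeb factors was in 2 of the 8, in 22.8% of the genes that fell, in 15.1% of those that rose and in 17.1% of those tested. The list was chosen for known targets of this factor, so a match among its members is a description. The windows of Nfkbia and Icam1, of this list, and of Cxcl10, a called chemokine gene outside it, are shown as genes with a match. The share of chemokine genes with a match is not given. The match is in capitals, read 5′ to 3′ on the gene's strand. Where the capitals read GGAAATTCC, the motif lies on the opposite strand.
Nfkbia (chr12:55492648-55492897, minus strand): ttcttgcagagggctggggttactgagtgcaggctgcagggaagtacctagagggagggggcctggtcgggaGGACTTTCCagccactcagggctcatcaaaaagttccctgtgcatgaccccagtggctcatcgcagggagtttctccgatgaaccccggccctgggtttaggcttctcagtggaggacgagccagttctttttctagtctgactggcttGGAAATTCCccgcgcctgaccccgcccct
Icam1 (chr9:21015690-21015939, plus strand): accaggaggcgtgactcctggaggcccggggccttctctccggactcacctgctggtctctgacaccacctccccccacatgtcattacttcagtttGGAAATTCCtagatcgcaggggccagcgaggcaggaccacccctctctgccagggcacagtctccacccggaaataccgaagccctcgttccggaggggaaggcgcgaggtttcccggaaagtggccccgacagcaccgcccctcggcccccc
Cxcl10 (chr5:92348890-92349139, minus strand): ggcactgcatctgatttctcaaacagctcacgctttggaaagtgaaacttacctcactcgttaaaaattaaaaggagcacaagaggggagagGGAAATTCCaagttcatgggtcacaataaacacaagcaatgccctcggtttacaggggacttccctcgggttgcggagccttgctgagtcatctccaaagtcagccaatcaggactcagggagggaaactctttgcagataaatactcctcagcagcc
The matches begin 178 and 29 bases before the start of Nfkbia, 153 before that of Icam1 and 158 before that of Cxcl10. In Nfkb2 the match lies 224 bases before one of its starts on chromosome 19, in a window that overlaps an annotated exon.

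Chemokines draw leukocytes into tissue. Of 14 tested 3 rose (21.4%) and none fell, 5 rose without resistant library 1, 1 rose without parental library 1 or any one of resistant libraries 2 to 5, and 2 rose without parental library 2. A fall was called without resistant library 2, beside the 1 rise, and in 1 fit over all 32 libraries, which gave 4 rises and 1 fall. Cxcl10, the ligand of CXCR3 on activated T cells, was 90.6 and 241 TPM in parental and 489, 637, 503, 479 and 542 in resistant libraries (difference 1.83 (SE 0.31, adjusted p = 0.00521)). Ccl2, which draws monocytes, was 225 and 183 TPM in parental and 254, 565, 502, 367 and 617 in resistant libraries (difference 1.11 (SE 0.31, adjusted p = 0.0438)). Ccl5, which draws T cells and other leukocytes, was 6.18 and 61 TPM in parental and 206, 93.4, 83.8, 103 and 137 in resistant libraries (difference 2.49 (SE 0.68, adjusted p = 0.0393)). For Ccl5 parental library 1 lay far below parental library 2, and without resistant library 1 its difference was 2.29 (adjusted p = 0.0523), which did not pass. Ccl5 also lost its call without any one of resistant libraries 2 to 5. Ccl2 lost its call in the same fits, and without parental library 1 or parental library 2. The neutrophil chemokine Cxcl1 was 32.5 and 21.01 TPM in parental and 25.6, 18.05, 12.8, 9.31 and 14.9 in resistant libraries. Cx3cl1, a membrane-bound chemokine, was 11.7 and 9.68 TPM in parental and 3.74, 8.04, 3.73, 6.05 and 3.55 in resistant libraries. Neither passed, with adjusted p of 0.181 and 0.0582.

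Of 19 cytokines and colony-stimulating factors tested, 4 rose and 3 fell. Vegfc, the growth factor of lymphatic vessels, was 6.31 and 5.06 TPM in parental and 33.4, 43.4, 57.6, 37.8 and 36.99 in resistant libraries, a difference of 2.66 (SE 0.22, adjusted p = 0.000228). Il11, a cytokine of the interleukin 6 family, was 0.402 and 0.421 TPM in parental and 1.89, 5.88, 7.07, 5.74 and 6.43 in resistant libraries (difference 2.10 (SE 0.39, adjusted p = 0.0087)). Csf1, which sustains macrophages, was 63.95 and 41.5 TPM in parental and 104, 82.9, 81.98, 87.8 and 114 in resistant libraries (difference 0.84 (SE 0.20, adjusted p = 0.0243)). With Tnfsf13b these were the members that rose, and no resistant library overlapped the parental ones in any. Among those that fell, Tnfsf9, the ligand of the T cell costimulator 4-1BB, was 37.3 and 56.6 TPM in parental and 15.1, 13.6, 18.1, 16.5 and 16.1 in resistant libraries (difference -1.48 (SE 0.20, adjusted p = 0.00205)). Il7, the survival factor of T cells, was 6.29 and 10.8 TPM in parental and 1.37, 3.08, 2.75, 2.46 and 2.95 in resistant libraries (difference -1.42 (SE 0.30, adjusted p = 0.0148)). Kitl, the ligand of the receptor Kit, was 39.9 and 48.9 TPM in parental and 21.6, 9.4, 15.8, 19.6 and 8.61 in resistant libraries (difference -1.58 (SE 0.35, adjusted p = 0.0174)). Counts without resistant library 1 were also 4 and 3. Without parental library 2 they were 4 and 1.

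The MAP kinase feedback, AP-1 and Egr list had 8 members that rose (24.2%) and 1 that fell among 33 tested, and 10 and 4 without resistant library 1. Without parental library 1 they were 4 and 2, and without parental library 2 they were 5 and 0. Jun was 22.2 and 23.7 TPM in parental and 81.1, 106, 87.1, 105 and 79.4 in resistant libraries, a difference of 1.94 (SE 0.16, adjusted p = 0.000228). Junb was 48.9 and 45.8 TPM in parental and 80.5, 132, 132, 123 and 107 in resistant libraries, a difference of 1.24 (SE 0.20, adjusted p = 0.0045). Dusp6, a phosphatase that turns ERK off and is itself induced by it, was 9.15 and 9.83 TPM in parental and 43.4, 52.3, 43.2, 50.6 and 38.4 in resistant libraries (difference 2.14 (SE 0.17, adjusted p = 0.000183)). Spry4, another inhibitor induced by this pathway, differed by 1.55 (SE 0.22, adjusted p = 0.00273). The immediate early factor Egr1 was 15.8 and 18.5 TPM in parental and 27.2, 73.3, 84.3, 86.7 and 66.6 in resistant libraries (difference 1.82 (SE 0.39, adjusted p = 0.0163)). Egr1 in resistant library 1 lay nearer to the parental libraries than to the other resistant ones. Phlda1 also rose (0.78 (SE 0.17, adjusted p = 0.0175)). Dusp4, a nuclear phosphatase of the same family as Dusp6, was 19 and 22.9 TPM in parental and 7.29, 3.27, 6.57, 4.96 and 6.91 in resistant libraries and fell by 1.73 (SE 0.28, adjusted p = 0.0048).

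**Figure D2:**
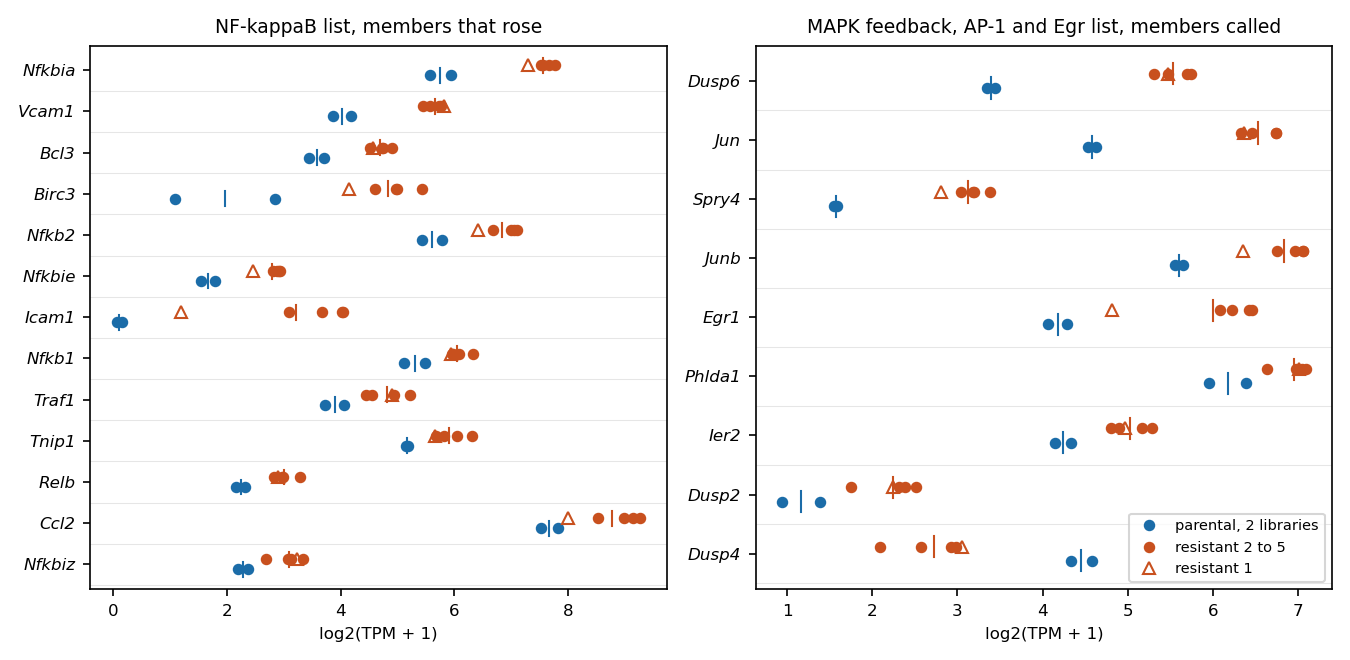
Level by library of the 13 NF-kappaB list members that rose (left) and of the 9 called members of the MAP kinase feedback, AP-1 and Egr list (right), on log2(TPM + 1). Points are libraries (blue parental, orange resistant, the open triangle resistant library 1) and ticks are group means. In each gene shown the parental and resistant libraries do not overlap, which the selection of called genes favors.

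Receptors and signal carriers of interferon were partly higher in the resistant cells. Of 15 members tested 4 rose (26.7%) and none fell, with the same counts without resistant library 1. Without parental library 1 none rose and 1 fell, and without parental library 2, or in 1 fit over all 32 libraries, there was 1 rise. Ifngr2, the signaling chain of the interferon gamma receptor, was 6.99 and 10.4 TPM in parental and 15.01, 24.4, 21.1, 23.3 and 18.2 in resistant libraries (difference 1.15 (SE 0.23, adjusted p = 0.013)), while the ligand-binding chain Ifngr1 was 21.2 and 46.02 TPM in parental and 26.1, 18.5, 30.1, 24.01 and 35.6 in resistant libraries (adjusted p = 0.643). Jak1, the kinase shared by both interferon receptors, was 77.1 and 89.8 TPM in parental and 143, 137, 115, 116 and 121 in resistant libraries (difference 0.59 (SE 0.14, adjusted p = 0.0249)), and its partner Jak2 was 8.96 and 15.9 TPM in parental and 13.7, 11.2, 10.8, 10.8 and 10.9 in resistant libraries (adjusted p = 0.89). Ifnar2, a chain of the type I receptor, was 23.5 and 20.99 TPM in parental and 44.6, 34.4, 33.5, 30.4 and 33.6 in resistant libraries (difference 0.63 (SE 0.17, adjusted p = 0.0418)). The feedback inhibitor Socs1 was 8.95 and 10.4 TPM in parental and 14.04, 24.05, 29.8, 29.7 and 26.8 in resistant libraries (difference 1.23 (SE 0.28, adjusted p = 0.0197)). Stat2, a factor of the type I response, was 10.8 and 39.7 TPM in parental and 26.99, 13.98, 10.9, 16.4 and 8.2 in resistant libraries (adjusted p = 0.527). Parental library 2 was the highest of the 7 and parental library 1 lay within the resistant range.

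That spread between the parental libraries ran through the type I interferon response genes. Of 29 tested, 2 fell (6.90%) and none rose, near the background, and without resistant library 1 3 fell. Without parental library 1, which left parental library 2 alone, 9 fell, and without parental library 2 none fell and 2 rose. Without any one of resistant libraries 2 to 5 none was called. Oas3, a sensor that activates RNA decay, was 4.57 and 27.1 TPM in parental and 2.94, 3.33, 2.01, 1.2 and 1.92 in resistant libraries (difference -1.97 (SE 0.54, adjusted p = 0.0403)). Isg20, an exonuclease, was 33.02 and 56.7 TPM in parental and 30.5, 15.3, 17.6, 14.3 and 15.4 in resistant libraries (difference -1.23 (SE 0.31, adjusted p = 0.0296)). Of 18 interferon gamma response genes 4 rose (22.2%) and none fell, and 7 rose without resistant library 1. The 4 were Cxcl10, Icam1, Socs1 and Batf2, a factor induced by the cytokine, with 0 and 0.49 TPM in parental and 2.42, 3.2, 7.28, 4.78 and 7.45 in resistant libraries (difference 2.21 (SE 0.40, adjusted p = 0.00735)), and without parental library 1 the list held 1 rise and 1 fall. Irf1, the first factor induced by interferon gamma, was 38.1 and 39 TPM in parental and 49.9, 48.1, 44.8, 37 and 41.2 in resistant libraries (adjusted p = 0.473). Gbp2 was 2.58 and 6.89 TPM in parental and 6.01, 4.91, 2.49, 2.65 and 3.14 in resistant libraries (adjusted p = 0.785). Nlrc5, the activator of MHC class I genes, was 10.5 and 7.17 TPM in parental and 13.9, 13.7, 16.3, 11.1 and 17.6 in resistant libraries (adjusted p = 0.0848).

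Antigen presentation genes differed little by the test. Of 10 MHC class I chain genes tested 1 fell (10%), H2-Ke6, a gene of the MHC region on the list that encodes a steroid dehydrogenase and no class I chain, with 24.6 and 30.5 TPM in parental and 18.1, 10.9, 11.1, 15.7 and 13.96 in resistant libraries (difference -0.95 (SE 0.23, adjusted p = 0.0254)). Of the class I heavy chains, H2-K1 was 180.1 and 289 TPM in parental and 222, 224, 207, 217 and 213 in resistant libraries (adjusted p = 0.814). H2-D1 was 244 and 349 TPM in parental and 187, 205, 180.2, 228 and 211 in resistant libraries (adjusted p = 0.0585). The light chain B2m was 1373 and 2369 TPM in parental and 1744, 1765, 1962, 1601 and 2289.9 in resistant libraries (adjusted p = 0.923). Class I genes are near-identical in sequence, so how reads were split between them is uncertain. Of 14 genes of peptide processing and loading 1 fell, Tap1, a chain of the peptide transporter, with 24.99 and 38.2 TPM in parental and 14.3, 17.4, 11.6, 12.2 and 15.5 in resistant libraries (difference -1.09 (SE 0.22, adjusted p = 0.0137)). Its partner Tap2 was 14.97 and 32.02 TPM in parental and 38.8, 24.9, 11.7, 18.3 and 20.8 in resistant libraries (adjusted p = 0.963), the immunoproteasome subunits Psmb8 and Psmb9 had adjusted p of 0.763 and 0.945, and Tapbp had 0.233. Without resistant library 1 the counts were again 1 fall in each list, and without parental library 2 Tap1 was not called and 1 class I chain gene rose.

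Among ligands that inhibit T or myeloid cells, 1 of 12 tested rose and 2 fell, against 1 and 3 without resistant library 1, 1 and 1 without parental library 1 and 2 and 1 without parental library 2. The rise was that of Cd200. Lgals9, galectin 9, a ligand of the T cell receptor TIM-3, was 55.5 and 105 TPM in parental and 13.1, 7.04, 5.69, 4.83 and 7.49 in resistant libraries and fell by 3.24 (SE 0.36, adjusted p = 0.000847). Fgl1, a ligand of the checkpoint receptor LAG-3, was 5.36 and 4.3 TPM in parental and 1.13, 1.08, 0.369, 0.489 and 0.211 in resistant libraries and fell by 1.85 (SE 0.31, adjusted p = 0.00555). Cd274, which encodes PD-L1, the ligand of PD-1, was 4.24 and 5.51 TPM in parental and 3.64, 3.63, 2.26, 2.01 and 3.59 in resistant libraries, a difference of -0.56 (SE 0.27, adjusted p = 0.204). Cd47, which inhibits phagocytosis, was 35.2 and 72.8 TPM in parental and 63.2, 69.1, 57.6, 67.4 and 61.2 in resistant libraries (adjusted p = 0.413). Of 8 ligands of NK cell receptors 3 fell (37.5%) and none rose, and without resistant library 1 the count was 2. Raet1e, a ligand of the receptor NKG2D, was 10.7 and 25.8 TPM in parental and 3.03, 2.52, 0.879, 0.852 and 0.716 in resistant libraries (difference -2.86 (SE 0.45, adjusted p = 0.00392)). The related Raet1d was 12.3 and 18.2 TPM in parental and 7.77, 9.53, 9.49, 7.94 and 6.56 in resistant libraries (difference -0.80 (SE 0.22, adjusted p = 0.0444)). The Raet1 genes are close copies, so the split of reads between them is uncertain. Without parental library 2 no member of this list was called, and without parental library 1 or any one of resistant libraries 3 to 5 there was 1.

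Sensors of nucleic acids split, with 2 of 19 rising (10.5%) and 2 falling (10.5%), and 3 and 3 without resistant library 1. Tmem173, the adaptor STING, was 2.62 and 4.52 TPM in parental and 10.01, 5.46, 8.21, 7.72 and 9.08 in resistant libraries (difference 1.002 (SE 0.27, adjusted p = 0.0385)). Trex1, the exonuclease that removes its DNA trigger, was 7.11 and 13.5 TPM in parental and 28.6, 27.8, 26.4, 27.4 and 25.5 in resistant libraries (difference 1.37 (SE 0.22, adjusted p = 0.00439)). Mavs, the adaptor of the RNA sensors, was 43.4 and 45.8 TPM in parental and 23.4, 25.3, 25.3, 23.4 and 27.4 in resistant libraries (difference -0.82 (SE 0.14, adjusted p = 0.00646)). Ifi204, a DNA sensor of a family of close copies, was 18.6 and 50.4 TPM in parental and 12.6, 4.09, 5.77, 4.32 and 7.46 in resistant libraries (difference -2.12 (SE 0.45, adjusted p = 0.0152)), with parental library 2 far above parental library 1. Without parental library 2 the list held 1 rise and no fall, and without parental library 1 it held 1 rise and 3 falls.

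Death receptors and their signaling genes were called in both directions, 8 up (33.3%) and 4 down (16.7%) of 24 tested, and 10 and 4 without resistant library 1. The counts without parental library 1 were 3 and 1, and without parental library 2 they were 6 and 1. Without resistant library 4 or 5, 5 rose. The 2 gasdermins on the list moved in opposite directions. Gsdmd, which forms pores in the membrane after cleavage by inflammatory caspases, was 0 and 0 TPM in parental and 2.69, 6.45, 4.95, 5.84 and 6.31 in resistant libraries (adjusted p = 0.00126), while Dfna5, a gasdermin of the same family, was 30.5 and 22.6 TPM in parental and 5.78, 0, 0.109, 0 and 0.251 in resistant libraries (difference -4.12 (SE 0.69, adjusted p = 0.0053)). Gsdmd was listed at 0 in both parental libraries, and Dfna5 was at or near 0 in resistant libraries 2 to 5. The receptor Fas was 0.292 and 0.884 TPM in parental and 4.57, 2.35, 6.95, 4.85 and 9.94 in resistant libraries (difference 2.001 (SE 0.42, adjusted p = 0.0145)). The decoy receptors Tnfrsf22 and Tnfrsf23 for TRAIL rose by 0.96 (SE 0.16, adjusted p = 0.00503) and 1.06 (SE 0.26, adjusted p = 0.0264). Tnfrsf10b, the signaling receptor for TRAIL, was 52.9 and 57.2 TPM in parental and 31.5, 20.9, 25.6, 28.7 and 26.1 in resistant libraries and fell by 1.04 (SE 0.18, adjusted p = 0.00554). Ripk3, the kinase of necroptosis, was 2.19 and 4.02 TPM in parental and 0.478, 0.154, 0, 0 and 0.0819 in resistant libraries (difference -1.82 (SE 0.31, adjusted p = 0.00583)), and Tnfrsf1b, a receptor for TNF, differed by -1.26 (SE 0.32, adjusted p = 0.0311). Casp8, the initiator caspase of this pathway, was 35.03 and 39.2 TPM in parental and 41.3, 32.9, 27.01, 33.8 and 30.5 in resistant libraries (adjusted p = 0.567).

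Of 44 epithelial adhesion and keratin genes in the table, only 14 were high enough to test, and 9 of these fell (64.3%) with none rising. The same counts held without resistant library 1, and 3 fell with a filter at 5 TPM. Without parental library 1 only 9 members could be tested, and without parental library 2 only 8. Genes present only in the parental cells then no longer reached 1 TPM in 2 libraries. The median differences in these fits were -0.80 and -0.91, against -1.32 for the 14. Most were low in the parental cells already. Jup, plakoglobin of desmosomes and adherens junctions, was 18.4 and 17.2 TPM in parental and 1.93, 0.391, 0.164, 0.0431 and 0.204 in resistant libraries, a difference of -3.72 (SE 0.40, adjusted p = 0.000705). Krt80 was 14.5 and 8.57 TPM in parental and 1.91, 0.416, 0.239, 0 and 0.227 in resistant libraries (difference -3.08 (SE 0.42, adjusted p = 0.0022)). Ovol2, a repressor of mesenchymal genes, was 6.38 and 3.74 TPM in parental and 0.333, 0, 0, 0 and 0 in resistant libraries (difference -2.48 (SE 0.30, adjusted p = 0.00126)). The tight junction gene Cldn6 was 8.02 and 4.65 TPM in parental and 0, 0, 0, 0 and 0 in resistant libraries (adjusted p = 0.000509). Krt20, a keratin of differentiated colon cells, was 2.07 and 3.44 TPM in parental and 0, 0, 0, 0.108 and 0 in resistant libraries, a difference of -1.85 (SE 0.28, adjusted p = 0.00366). Cldn12 was the most abundant member that fell, with 98.3 and 85.5 TPM in parental and 49.4, 54.9, 43.2, 36.8 and 41.9 in resistant libraries (difference -1.02 (SE 0.17, adjusted p = 0.00575)). Since a gene had to reach 1 TPM in 2 libraries to be tested, a gene present only in the 2 parental libraries enters by being high there. The count is therefore read with that limit.

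Mesenchymal factors and markers moved both ways, 7 of 20 rising (35.0%) and 3 falling (15%), with the same counts without resistant library 1. Without parental library 1 they were 2 and 2, and without parental library 2 they were 2 and 0. Zeb1, a repressor of epithelial genes, was 6.71 and 8.66 TPM in parental and 56.3, 53.3, 64.8, 65.3 and 52.5 in resistant libraries, a difference of 2.78 (SE 0.17, adjusted p = 6.70e-05). Prrx1, a homeobox factor of mesenchyme, was 13.9 and 19.99 TPM in parental and 128, 142, 197, 208 and 168 in resistant libraries (difference 3.24 (SE 0.22, adjusted p = 0.00012)). Snai1 was 64.4 and 67.04 TPM in parental and 163, 105, 124, 122 and 139.8 in resistant libraries and rose by 0.97 (SE 0.17, adjusted p = 0.00652), while its relative Snai2 was 12.4 and 11.9 TPM in parental and 4.89, 2.96, 4.07, 2.12 and 2.76 in resistant libraries and fell by 1.63 (SE 0.28, adjusted p = 0.00546). Fbn1, Tcf4 and Cd44 also rose, by 1.43, 1.01 and 0.59. Cdh2, N-cadherin, was 7.24 and 9.79 TPM in parental and 1.54, 2.5, 1.4, 1.78 and 1.42 in resistant libraries (difference -1.80 (SE 0.26, adjusted p = 0.0027)). S100a4, a calcium-binding protein of motile cells, was 2794 and 2887 TPM in parental and 1529, 305, 291, 259.5 and 260.2 in resistant libraries (difference -2.86 (SE 0.61, adjusted p = 0.016)), and resistant library 1 held it at a level between the lines. Itga6, an integrin chain of hemidesmosomes, which anchor epithelia to the basement membrane, was 27.9 and 40.9 TPM in parental and 6.21, 4.17, 10.2, 4.06 and 4.53 in resistant libraries (difference -2.42 (SE 0.33, adjusted p = 0.00219)).

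Collagen genes were called in both directions. Of 21 chains tested 7 rose (33.3%) and 6 fell (28.6%), with the same counts without resistant library 1, 2 and 1 without either parental library and 4 and 4 without resistant library 4. Chains of collagen VI, the beaded filament collagen, rose: Col6a3 was 159 and 237 TPM in parental and 328, 362, 609, 583 and 582 in resistant libraries (difference 1.29 (SE 0.28, adjusted p = 0.0168)). Col6a2 was 25.6 and 21.4 TPM in parental and 93.4, 112, 55.5, 66.1 and 53.8 in resistant libraries (difference 1.60 (SE 0.29, adjusted p = 0.00692)). Col6a1 was 59.1 and 80.8 TPM in parental and 232, 229, 116, 136 and 114 in resistant libraries (difference 1.17 (SE 0.31, adjusted p = 0.0374)). Resistant libraries 1 and 2 were the highest for Col6a1 and Col6a2 and the lowest for Col6a3. Col5a3, a minor chain of fibrils, was 2.31 and 5.05 TPM in parental and 11.7, 24.8, 19.9, 19.8 and 19.8 in resistant libraries (difference 2.14 (SE 0.31, adjusted p = 0.00299)), and Col7a1 and Col18a1 rose by 1.40 (SE 0.33, adjusted p = 0.0231) and 0.80 (SE 0.15, adjusted p = 0.00791). With the basement membrane chains Col4a1 and Col4a2 above, the fibrillar chain Col3a1 fell, with 41.8 and 58.2 TPM in parental and 6.12, 14.97, 8.08, 17.99 and 3.88 in resistant libraries (difference -2.34 (SE 0.48, adjusted p = 0.0133)). Col12a1, which decorates fibrils, was 7.66 and 10.5 TPM in parental and 1.31, 0.354, 0.421, 1.23 and 0.442 in resistant libraries (difference -2.55 (SE 0.32, adjusted p = 0.00142)), and Col11a1 fell by 1.28 (SE 0.31, adjusted p = 0.0269) from low parental levels.

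**Figure D3:**
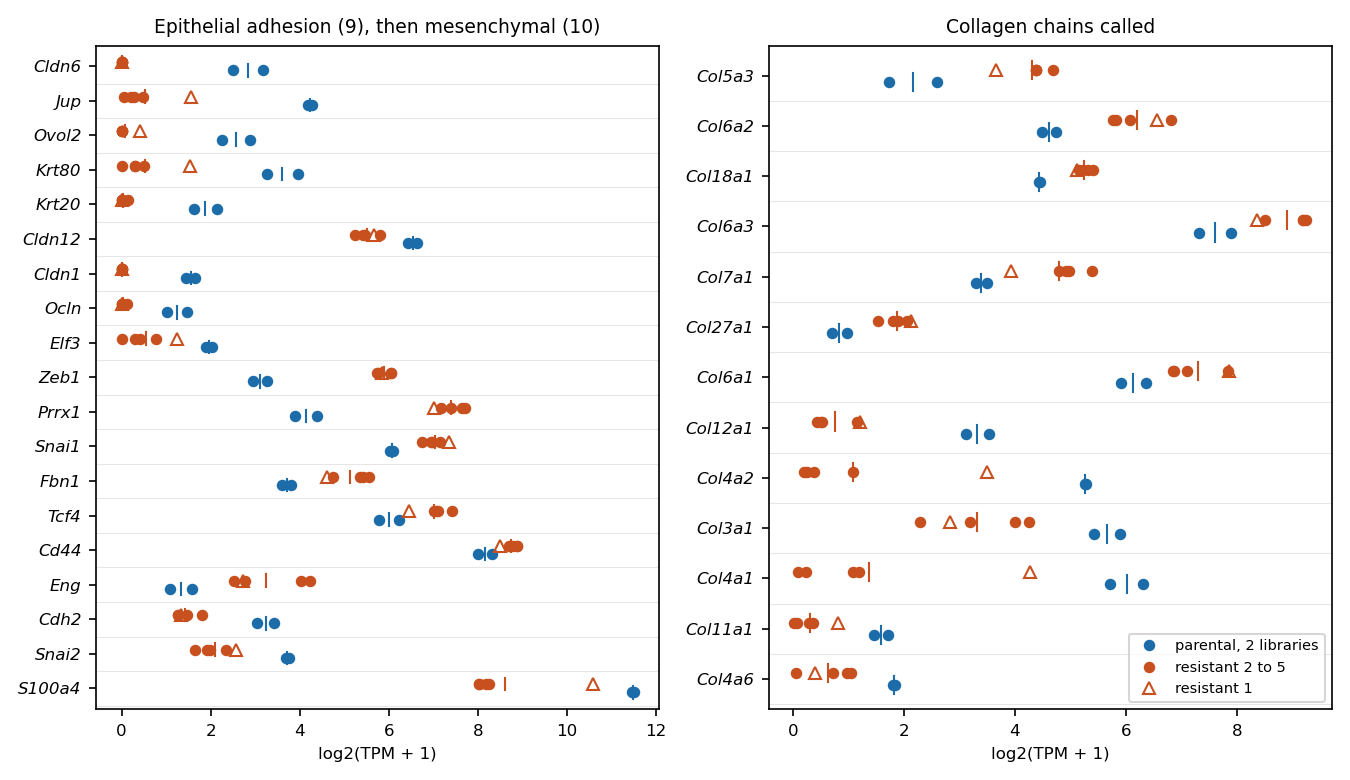
Level by library of the 9 epithelial adhesion and keratin genes and the 10 mesenchymal genes called (left) and of the 13 collagen chains called (right), on log2(TPM + 1). Points are libraries (blue parental, orange resistant, the open triangle resistant library 1) and ticks are group means. The epithelial genes lie at or near 0 in most resistant libraries, apart from Cldn12, and the collagen chains split between those higher and those lower in resistant cells.

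Other matrix genes split in the same manner. Among matrix glycoproteins and proteoglycans, 8 of 31 rose (25.8%) and 6 fell (19.4%), and 9 and 8 without resistant library 1. The counts without parental library 1 were 5 and 4, and without parental library 2 they were 4 and 3. Next to Dcn, the related proteoglycan Bgn, biglycan, was 2.74 and 1.09 TPM in parental and 16.4, 33.4, 14.6, 22.4 and 8.87 in resistant libraries (difference 2.72 (SE 0.44, adjusted p = 0.00439)). Emilin1, an elastic fiber protein, was 8.86 and 10.5 TPM in parental and 31.5, 60.7, 54.1, 56.1 and 38.6 in resistant libraries (difference 2.17 (SE 0.26, adjusted p = 0.00122)), and Sdc3, a cell surface proteoglycan, differed by 1.52 (SE 0.23, adjusted p = 0.0034). Tnc, tenascin C of wound and tumor stroma, was 0.17 and 0.459 TPM in parental and 1.43, 2.91, 4.53, 4.68 and 4.56 in resistant libraries (difference 1.75 (SE 0.37, adjusted p = 0.0151)). Ltbp1, which stores latent TGF-beta in the matrix, was 60.7 and 74.3 TPM in parental and 11.5, 4.78, 4.52, 2.73 and 2.89 in resistant libraries and fell by 3.59 (SE 0.42, adjusted p = 0.00115). Thbs3 was 47.4 and 38.9 TPM in parental and 12.8, 6.86, 6.36, 5.84 and 7.15 in resistant libraries and fell by 2.37 (SE 0.28, adjusted p = 0.00113). Gpc1, glypican 1, was 204 and 255 TPM in parental and 98.3, 103, 119, 122 and 134 in resistant libraries (difference -0.99 (SE 0.16, adjusted p = 0.00457)). No parental library overlapped the resistant range in these 7 genes after Dcn, which were chosen among the called members.

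The list of matrix enzymes and inhibitors had 10 rises (38.5%) and 6 falls (23.1%) among 26 tested, the same without resistant library 1, 5 and 3 without parental library 1 and 8 and 2 without parental library 2. After Mmp9, Serpinf1, a secreted inhibitor of vessel growth, was 21.97 and 18.8 TPM in parental and 218, 105, 162, 132 and 134 in resistant libraries (difference 2.78 (SE 0.25, adjusted p = 0.000287)). The protease Adamts9 was 3.53 and 6.63 TPM in parental and 22.8, 37.5, 29.2, 37.4 and 23.8 in resistant libraries (difference 2.38 (SE 0.28, adjusted p = 0.00109)). Timp3, an inhibitor of metalloproteases that binds to matrix, was 0.775 and 1.78 TPM in parental and 17.9, 6.83, 10.1, 11.4 and 11.9 in resistant libraries (difference 2.45 (SE 0.33, adjusted p = 0.00219)), and its relative Timp2 was 85.6 and 81.6 TPM in parental and 62.6, 45.4, 44.4, 44.7 and 44.8 in resistant libraries and fell by 0.79 (SE 0.17, adjusted p = 0.0151). Plaur, the receptor of urokinase, was 249 and 248 TPM in parental and 135, 136, 158, 141 and 149 in resistant libraries and fell by 0.79 (SE 0.12, adjusted p = 0.00341). P4ha3, a prolyl hydroxylase of collagen, rose by 2.20 (SE 0.24, adjusted p = 0.000863), and P4ha2, of the same enzyme family, fell by 1.32 (SE 0.28, adjusted p = 0.0143). Hpse, which cuts heparan sulfate, was 12.1 and 25.4 TPM in parental and 6.001, 1.74, 2.49, 1.46 and 1.46 in resistant libraries (difference -2.49 (SE 0.44, adjusted p = 0.00703)), and the crosslinking enzyme Loxl4 differed by -1.26 (SE 0.26, adjusted p = 0.0136).

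Targets of NRF2, the factor that switches on antioxidant and detoxifying enzymes, moved only down where they were called: 8 of 32 tested fell (25%) and none rose, with a median difference of -0.32. The count was again 8 without resistant library 1 and 6 without parental library 1. Without parental library 2 the list held 4 falls and 2 rises. Nqo1, a quinone reductase, was 241 and 160.4 TPM in parental and 30.4, 17.98, 18.3, 15.8 and 21.1 in resistant libraries, a difference of -3.22 (SE 0.26, adjusted p = 0.000199). The glutathione transferases Gstm1 and Gstm2, which are close copies whose reads could be shared, were 75.9 and 84.2 TPM in parental and 25.7, 30.4, 20.9, 20.3 and 19.98 in resistant libraries and 13.2 and 29.8 TPM in parental and 0.293, 0.726, 0.524, 0.456 and 0 in resistant libraries. Their differences were -1.75 (SE 0.19, adjusted p = 0.000873) and -3.92 (SE 0.35, adjusted p = 0.000296). Ftl1, the ferritin light chain, was 1841 and 1547 TPM in parental and 815, 620.2, 614, 766 and 633 in resistant libraries (difference -1.30 (SE 0.16, adjusted p = 0.00126)). Sod3, the secreted superoxide dismutase, was 20.9 and 20.9 TPM in parental and 4.21, 0.0862, 0.115, 0.0776 and 0.322 in resistant libraries (difference -3.82 (SE 0.58, adjusted p = 0.00357)). Cat, catalase, was 111 and 133 TPM in parental and 68.4, 70.9, 51.1, 54.99 and 54.7 in resistant libraries (difference -1.02 (SE 0.17, adjusted p = 0.00532)). Nqo1 and Ftl1 were lower in every resistant library than in either parental one, as were the other members named here.

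Enzymes that handle alcohols, aldehydes and retinoids were also mostly lower where called, 6 of 19 (31.6%) against 1 that rose, and 8 and 1 without resistant library 1. Without either parental library 1 fell and none rose. Only 16 members could be tested in each of those fits, since genes such as Stra6 then no longer reached 1 TPM in 2 libraries. Adh7, an alcohol dehydrogenase that oxidizes retinol, was 92.7 and 123 TPM in parental and 20.3, 12.2, 15.4, 10.8 and 16.2 in resistant libraries (difference -2.79 (SE 0.24, adjusted p = 0.000259)). Stra6, the cell's receptor for the retinol carrier, was 10.6 and 9.35 TPM in parental and 0.697, 0, 0.0628, 0.0602 and 0.28 in resistant libraries (difference -3.19 (SE 0.29, adjusted p = 0.000326)). Aldh2, the mitochondrial aldehyde dehydrogenase, was 529.9 and 534 TPM in parental and 379, 387, 354, 333 and 329.6 in resistant libraries (difference -0.58 (SE 0.12, adjusted p = 0.0134)). Stra6 was near 0 in every resistant library, and the other genes kept a lower level there.

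Proliferins, hormones of the prolactin family that are made by placenta and by some cultured cells, were among the most abundant transcripts that fell. Prl2c2 was 3077 and 2355 TPM in parental and 531, 113, 126, 125 and 138 in resistant libraries (difference -3.998 (SE 0.53, adjusted p = 0.00188)). Prl2c3 was 124 and 289 TPM in parental and 52.1, 10.1, 34.8, 20.8 and 48.9 in resistant libraries (difference -2.68 (SE 0.58, adjusted p = 0.0164)). These genes are near-identical copies, so the split between them is uncertain, but both were lower in every resistant library than in either parental one. Of 9 tested genes of insulin-like growth factors and their binding proteins 3 fell and none rose, and 6 fell without resistant library 1. Igf2bp3, an RNA-binding protein of fetal tissue, was 14.3 and 11.6 TPM in parental and 3.44, 0, 0, 0 and 0 in resistant libraries (difference -3.36 (SE 0.58, adjusted p = 0.00587)). Igfbp6 was 45.9 and 59.2 TPM in parental and 28.5, 8.15, 14.3, 10.3 and 11.3 in resistant libraries (difference -1.90 (SE 0.39, adjusted p = 0.0133)). Without either parental library none of this list was called.

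Plexins, the receptors of semaphorin guidance cues, rose as far as they were called. Of 21 semaphorin, plexin and neuropilin genes 5 rose (23.8%) and none fell, against 7 and 1 without resistant library 1. Plxnd1 was 50.98 and 60.6 TPM in parental and 242, 304, 235, 261 and 272 in resistant libraries (difference 2.21 (SE 0.14, adjusted p = 9.08e-05)), Plxnc1 was 0 and 0.0428 TPM in parental and 15.3, 9.72, 6.24, 6.2 and 5.96 in resistant libraries (difference 3.16 (SE 0.35, adjusted p = 0.000913)) and its ligand Sema7a was 1.62 and 1.86 TPM in parental and 7.47, 8.34, 12.3, 9.77 and 13.7 in resistant libraries (difference 2.02 (SE 0.26, adjusted p = 0.00167)). Of 37 homeobox genes 3 rose and 6 fell (16.2%), and 5 and 6 without resistant library 1. Without parental library 1 they were 2 and 1, and without parental library 2 they were 2 and 3. Those that fell included Hoxc4, with 7.84 and 7.29 TPM in parental and 1.29, 1.41, 1.17, 1.83 and 1.33 in resistant libraries (difference -1.84 (SE 0.23, adjusted p = 0.0015)), Hoxd13, with 15.8 and 14.8 TPM in parental and 5.84, 6.05, 8.62, 8.61 and 7.66 in resistant libraries (difference -0.98 (SE 0.21, adjusted p = 0.0171)), and Prrx2, with 44.4 and 25.4 TPM in parental and 11.3, 3.1, 6.14, 7.79 and 3.58 in resistant libraries (difference -2.35 (SE 0.43, adjusted p = 0.00748)). Prrx2 thus fell where its relative Prrx1 rose. Pdgfrb, a receptor tyrosine kinase of mesenchymal cells, was 5.73 and 4.55 TPM in parental and 18.4, 27.6, 20.6, 20.6 and 16.5 in resistant libraries (difference 1.81 (SE 0.22, adjusted p = 0.00126)).

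Among genes of growth and metabolism, 1 of 42 cytosolic ribosomal protein genes rose, and 2 without resistant library 1. Of 40 cell cycle genes 3 rose and 2 fell, and 5 and 2 without that library. Among the cell cycle genes, Ccnd1, cyclin D1, was 204 and 201 TPM in parental and 331, 378, 338, 348 and 349.9 in resistant libraries (difference 0.78 (SE 0.11, adjusted p = 0.00285)). Cdkn2a, an inhibitor of cell cycle kinases, was 16.1 and 24.3 TPM in parental and 46.6, 34.01, 26.6, 38.9 and 40.6 in resistant libraries (difference 0.86 (SE 0.24, adjusted p = 0.0415)). Of 42 nuclear genes of oxidative phosphorylation 1 rose and 4 fell, and 3 and 5 without resistant library 1. Of 25 glycolysis genes 4 fell (16%) and none rose, 6 fell without resistant library 1, 3 without parental library 1 and none without parental library 2. Of 36 cholesterol and fatty acid genes 3 rose and 1 fell, and 3 and 4 without resistant library 1. Of 13 genes of the Bcl2 family 1 rose and 1 fell, and 3 and 3 without it. Targets of p53 had 3 rises and 5 falls (26.3%) among 19 tested, the same without resistant library 1, 0 and 2 without parental library 1 and 0 and 1 without parental library 2.

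**Figure D4:**
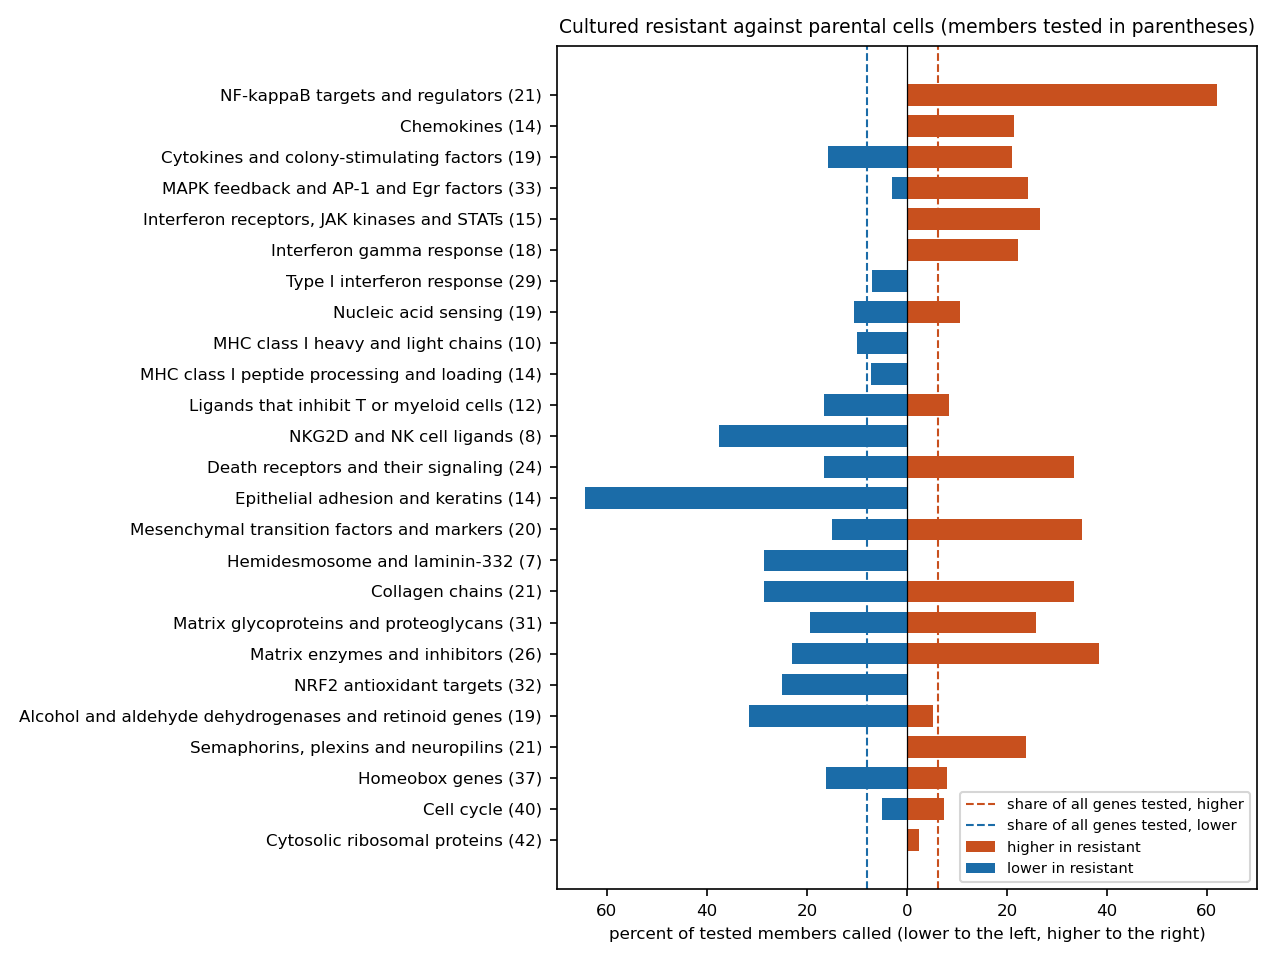
Share of the tested members of 25 gene lists that were called higher (orange, to the right) or lower (blue, to the left) in cultured resistant cells, in percent, with the number of members tested in parentheses. Dashed lines mark the share of all genes tested that was higher (6.15%) or lower (8.04%). The NF-kappaB list reaches 61.9% higher and the epithelial list 64.3% lower, while ribosomal and cell cycle genes lie near or under the dashed lines. Epithelial members present only in the parental cells passed the filter by being high there, which favors falls in that list.

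The tumors share no library with the cultures, so the line difference could be measured again in them, in tissue that also holds host cells. There, 1969 of 12095 genes tested were higher (16.3%) and 1678 lower (13.9%) in resistant tumors. In a bulk tumor, fewer cells of a type and less RNA per cell cannot be told apart. Of the 689 genes that rose in culture, 687 were tested in tumors, where 336 were higher (48.9%) and 23 lower (3.35%). Of the 901 that fell in culture, 812 were tested, with 362 lower (44.6%) and 15 higher (1.85%). Over 10900 genes tested in both settings the line differences correlated at Pearson's r of 0.48 and Spearman's rho of 0.41, across genes, which are not independent replicates. The genes that rose in culture had a median difference of 1.002 there and 0.35 in tumors, and those that fell had -1.11 and -0.32. These genes were selected by their culture values, which by itself makes the culture medians larger, so the 2 settings' medians are not a comparison of size.

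The difference between the settings was tested in 1 fit over all 32 libraries, as the resistant minus parental difference of the tumors less that of the cultures. It was called for 604 of 15061 genes (4.01%), for 189 of the 689 that rose in culture (27.4%) and for 279 of the 901 that fell (31.0%). Over all genes the count was 361 higher and 243 lower. It was 96 and 135 without parental library 2, 320 and 145 without parental library 1, and 835 and 560 with array weights. Of the 30 genes with the largest changes in culture, 25 were called. Genes selected by their culture difference are tested here on a value that holds the same culture libraries, so the shares among them are raised by the selection and are given as a description. Acsl5 was 35.8 ± 6.02 TPM (SD, n = 13) in parental and 47.3 ± 2.4 TPM (SD, n = 12) in resistant tumors, and Slc4a5 was 39.1 ± 13.6 TPM (SD, n = 13) in parental and 29.04 ± 7.21 TPM (SD, n = 12) in resistant tumors, against about 1 TPM or less in parental culture. Their differences between the settings were -4.51 (SE 0.22, adjusted p = 3.54e-16) and -5.26 (SE 0.45, adjusted p = 4.05e-10). Dcn was 239.7 ± 172 TPM (SD, n = 13) in parental and 477 ± 154 TPM (SD, n = 12) in resistant tumors, a line difference of 1.39 (adjusted p = 0.014) in tumors and -5.48 (SE 0.95, adjusted p = 0.000239) between the settings. Laptm5 was 346 ± 99.2 TPM (SD, n = 13) in parental and 201 ± 39.9 TPM (SD, n = 12) in resistant tumors and went the other way in tumors, with -0.73 (adjusted p = 0.000981). Parental tumors thus held transcripts of these genes at levels that the parental cells in culture did not, and the part of host cells in those levels was not tested.

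Other genes were called in both settings, in the same direction, and not for the difference between them. Prl2c2 was 612 ± 422 TPM (SD, n = 13) in parental and 28.95 ± 11.01 TPM (SD, n = 12) in resistant tumors, a line difference of -4.11 (adjusted p = 1.70e-10), and the difference between the settings was -0.11 (SE 0.72, adjusted p = 0.973). S100a4 was 1169 ± 335 TPM (SD, n = 13) in parental and 216 ± 49.2 TPM (SD, n = 12) in resistant tumors, with -2.41 (adjusted p = 1.34e-12) in tumors and 0.44 (SE 0.47, adjusted p = 0.774) between the settings, and Pdgfrb had 1.79 (adjusted p = 1.87e-08) and -0.02 (SE 0.37, adjusted p = 0.991). Cyct, Efhc2, Ncam1 and Rhox10, with -5.91, -4.81, -4.23 and -4.22 in culture, were lower in resistant tumors too, by -3.70 (adjusted p = 3.50e-11), -2.49 (adjusted p = 1.28e-07), -2.76 (adjusted p = 4.20e-09) and -2.28 (adjusted p = 7.39e-06), and none was called for the difference between the settings. A p that misses the threshold does not show that these differences are equal.

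The direction of the NF-kappaB list in culture was not seen in tumors. Of 22 NF-kappaB list members tested in tumors 2 were higher and 4 lower, with a median difference of -0.02. Nfkbia was 196 ± 108 TPM (SD, n = 13) in parental and 190.3 ± 45.4 TPM (SD, n = 12) in resistant tumors, and its difference between the settings was -1.75 (SE 0.38, adjusted p = 0.00408). For Vcam1 and Birc3 it was -1.67 (SE 0.24, adjusted p = 1.07e-05) and -2.55 (SE 0.44, adjusted p = 0.000224). Ccl2 and Ccl5 were lower in resistant tumors, by -1.03 (adjusted p = 1.90e-06) and -0.78 (adjusted p = 0.00127), the reverse of culture, with differences between the settings of -2.14 (SE 0.33, adjusted p = 4.52e-05) and -3.28 (SE 0.54, adjusted p = 0.000116). In tumors 11 of 20 leukocyte genes tested were lower in the resistant line and none was higher, and the part of those cells in these values was not tested. Of the collagens, Col3a1 and Col12a1 were higher in resistant tumors, by 1.05 (adjusted p = 0.00121) and 1.07 (adjusted p = 0.00134), and lower in culture, with differences between the settings of 3.39 (SE 0.56, adjusted p = 0.000127) and 3.63 (SE 0.53, adjusted p = 2.07e-05). Lgals9 and Nqo1 were lower in both settings, with -0.56 (adjusted p = 0.000479) and -0.9995 (adjusted p = 0.00446) in tumors, by less than in culture (2.68 (SE 0.31, adjusted p = 2.51e-07) and 2.22 (SE 0.56, adjusted p = 0.0157)).

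**Figure D5:**
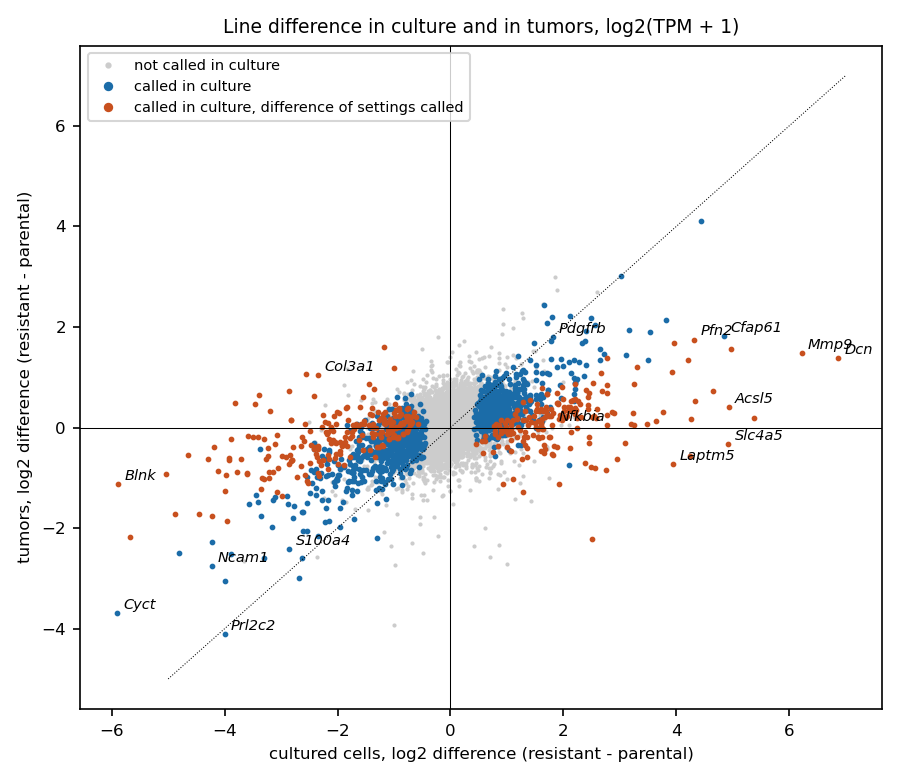
Line difference (resistant minus parental) in cultured cells on the horizontal axis and in tumors on the vertical axis, both on log2(TPM + 1), for the 10900 genes tested in both settings. Grey points were not called in culture, blue ones were, and orange ones were also called for the difference between the settings. The dotted line marks equal differences, near which Prl2c2, S100a4 and Pdgfrb lie, while Dcn, Mmp9, Slc4a5 and Blnk lie toward the horizontal axis.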

How the data were processed

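Poly(A) RNA came from a Qiagen extraction with DNase and KAPA RNA HyperPrep library kits, per the labels. The authors deposited 1 table of TPM by mouse gene symbol for 32 libraries, all used here. Per the submitters' processing notes, STAR and the human build GRCh38 were involved, in roles left unsaid. The quantifier and annotation are not given in the sources used here. Groups came from the descriptions, and libraries are numbered in accession order.

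Genes with at least 1 TPM in 2 or more of the 7 cultured libraries were fitted on log2(TPM + 1) with limma 3.58.1 in R 4.3.3, with empirical Bayes moderation, an intensity trend and Benjamini-Hochberg adjustment over all genes tested. Tumors needed 1 TPM in 12 of 25 libraries, and the difference between the settings 1 TPM in 2 of 32. The fits were tested on simulated data. The members and lists were chosen with earlier results of these data known. Genes named are the 15 largest rises and 15 largest falls among called genes averaging 5 TPM or more in the higher group (not counting provisional gene models, pseudogenes, receptor segments, Y-linked genes and Xist), up to 6 called members per list and direction, any member of the immune and death receptor lists, and those said to be named after their values were seen. A few genes that this rule names are not reported here. Promoter windows came from RefSeq tables on GRCm38.p6. Alternatives were pseudocounts of 0.1 and 0.5, filtering at 5 TPM or not at all, scaling by quantiles or by median of ratios, robust moderation, no trend, array weights, 1 fit over all libraries, a 2-fold minimum and leaving out each cultured library. A GC index was added after the data were seen. It is the median level of 2190 genes with a GC fraction above 0.55, less that of 612 genes below 0.42, computed from GENCODE transcripts.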

Additional observations from a re-analysis of the deposited data

Results flagged for a closer look

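Among the 30 genes with the largest changes in culture, 10 had 1 resistant library whose gap to the nearest other one, over the range of the 5, was above 0.71, the limit that chance passes in about 1 in 20 groups. In all 10 this was resistant library 1, with TPM of 16.5 for Stxbp2, 12.8 for Cyct, 3.93 for Blnk, 14.6 for Fndc3c1, 2.44 for Map2, 14.2 for Efhc2, 18.3 for Col4a1, 10.2 for Col4a2, 0.870 for Slc5a1 and 1.77 for Rhox10. In each of these genes its level lay on the parental side of the other resistant libraries.

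For 25 of the 30 genes the tumor difference between the lines less the culture difference, tested with limma over all 32 libraries, was called. Among the genes that rose in culture it was -5.48 for Dcn, -4.74 for Mmp9, -5.18 for Stxbp2, -3.40 for Cd200, -4.51 for Acsl5, -5.26 for Slc4a5 and -3.94 for Oaf. It was -3.81 for Tnfsf13b, -2.57 for Pfn2, -4.08 for Pacs1, -4.82 for Fyb, -2.28 for Inhba, -4.67 for Laptm5 and -2.83 for Padi2. Among the genes that fell in culture it was 4.76 for Blnk, 3.49 for Fndc3c1, 4.13 for Map2, 3.17 for Csn3, 4.10 for Col4a1 and 4.08 for Sprr1b. It was 2.73 for Msln, 3.69 for Asb4, 4.02 for Slc5a1, 3.68 for Arl6ip1 and 3.79 for Col4a2. Of the 15 falls, only 12 were tested in tumors alone. The others, which are among the genes given here, did not reach 1 TPM in 12 of the 25 tumors. For them the value is set against tumor levels under that filter in both lines. Each of the 25 values is opposite in sign to the line difference in culture, which the selection of genes by that difference favors. An opposite sign can mean a smaller tumor difference in the same direction. In tumors alone, 10 of the 15 rises were called higher in the resistant line and 1 lower. All 12 falls tested there were called lower. Over all genes tested in tumors 16.3% were higher and 13.9% lower.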

How the results depend on the processing

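Of 185 genes named with a test in culture 160 were called, and 77 of these stayed called under every alternative that could test them. Of the 160, 150 could be tested without parental library 1, 150 without parental library 2 and 151 with the filter at 5 TPM. Some of the 77, such as Asb4, were therefore not tested under every alternative. No called gene changed sign. Leaving out parental library 1 ended the call of 60 genes and leaving out parental library 2 that of 67, while leaving out resistant library 1 ended that of 3. Leaving out 1 cultured library moved the genes higher in culture over 216 to 924 and those lower over 176 to 1192, and a minimum of 2-fold gave 346 and 557. In tumors a minimum of 2-fold gave 186 and 242. For the difference between the settings, array weights gave 835 higher and 560 lower against 361 and 243, and leaving out 1 cultured library 96 to 443 and 135 to 271. The cause of these shifts was not tested, apart from the minimum, which counts fewer genes by construction. Counts under the other alternatives were within 1.5 times. An index of GC content as a covariate, chosen after seeing the data, gave 638 higher and 828 lower in culture. No paired analysis was possible because the labels give the cultured libraries no replicate numbers. Depth is unknown, so precision rests on 2 and 5 libraries.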

Other observations

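Developmental signaling genes were called in both directions in the cultured resistant cells. Of 23 activin and BMP genes tested 4 rose and 2 fell, against 5 and 3 without resistant library 1 and 2 and 1 without either parental library. Besides Inhba, Bmp2, a ligand of the BMP receptors, was 0.531 and 0.652 TPM in parental and 3.77, 8.64, 13.3, 14.9 and 9.97 in resistant libraries (difference 2.69 (SE 0.42, adjusted p = 0.00398)). Id2, an inhibitor of differentiation factors that BMP signals commonly induce, was 147 and 143 TPM in parental and 26.7, 47.1, 29.8, 35.5 and 24.3 in resistant libraries and fell by 2.16 (SE 0.24, adjusted p = 0.000817). In both genes the groups did not overlap.

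Of 12 Notch genes tested 2 rose and 2 fell, and 3 and 2 without resistant library 1. The ligand Jag1 was 14 and 14.97 TPM in parental and 21.8, 82.5, 64.8, 56.3 and 60.8 in resistant libraries (difference 1.79 (SE 0.41, adjusted p = 0.0213)), with resistant library 1 nearest the parental level. The receptor Notch2 was 13.3 and 14.7 TPM in parental and 21.2, 18.7, 28.7, 27.99 and 26.9 in resistant libraries (difference 0.76 (SE 0.20, adjusted p = 0.0375)). The glycosyltransferases Lfng and Mfng, which modify Notch receptors and change their choice of ligand, were 21.8 and 21.8 TPM in parental and 5.17, 0.316, 1.51, 0.633 and 0.995 in resistant libraries and 10.6 and 10 TPM in parental and 1.04, 1.53, 0.167, 0.339 and 0.368 in resistant libraries. Their differences were -3.30 (SE 0.52, adjusted p = 0.00397) and -2.81 (SE 0.34, adjusted p = 0.00132). Without either parental library 1 or parental library 2 the 2 rises were not called and the count of falls stayed at 2.

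Of 8 Hedgehog genes tested 1 rose and 2 fell, with the same counts without resistant library 1 and no call without parental library 2. In that last fit only 7 Hedgehog members could be tested, and Gli2, near 0 in the resistant libraries, was not among them. The signal transducer Smo was 25.97 and 21.7 TPM in parental and 41.5, 46.1, 42.2, 40.1 and 36.03 in resistant libraries (difference 0.77 (SE 0.15, adjusted p = 0.0123)). Gli2, the activating factor at the end of this pathway, was 2.47 and 5.99 TPM in parental and 0.0306, 0, 0, 0.217 and 0 in resistant libraries (difference -2.23 (SE 0.33, adjusted p = 0.00317)). Gas1, a coreceptor, fell by 1.41 (SE 0.29, adjusted p = 0.0126). Among 19 hypoxia response genes 3 fell and none rose, with the same counts without resistant library 1. Egln3, an oxygen-sensing hydroxylase, was 15.3 and 48.6 TPM in parental and 12.7, 3.66, 5.7, 7.11 and 4.27 in resistant libraries (difference -1.999 (SE 0.49, adjusted p = 0.0266)). The glucose transporter Slc2a1 was 123 and 233 TPM in parental and 111, 88.9, 83.5, 76.1 and 73.7 in resistant libraries (difference -0.97 (SE 0.24, adjusted p = 0.0293)), each highest in parental library 2. Without parental library 2 the hypoxia list held no fall and 2 rises.

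Among other listed genes, Ptgs1, cyclooxygenase 1, was 34.3 and 21.7 TPM in parental and 7.28, 1.07, 0.73, 1.9 and 0.902 in resistant libraries (difference -3.35 (SE 0.56, adjusted p = 0.00515)). Hgf, the ligand of the receptor Met, was 6.3 and 7.38 TPM in parental and 14.3, 21.9, 29.8, 27.7 and 25.8 in resistant libraries (difference 1.63 (SE 0.27, adjusted p = 0.00506)). Dgki, a diacylglycerol kinase of neurons, was 0.68 and 0.089 TPM in parental and 4.002, 11.4, 11.2, 14.8 and 12.2 in resistant libraries (difference 3.02 (SE 0.42, adjusted p = 0.00249)). Its line difference was 3.01 (adjusted p = 1.07e-07) in tumors, and the difference between the settings was -0.01 (SE 0.71, adjusted p = 0.998).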
